A study of Mus musculus with 9 samples.

Results

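Heme synthesis was followed through 8 enzyme genes, Alas1, Alas2, Alad, Uros, Urod, Cpox, Ppox and Fech, together with Epor, the gene for the erythropoietin receptor. These 9 genes were chosen by name, with earlier results of these data known, from the 27179 gene entries of the count files. All 9 were found by their Entrez numbers. Of these, 8 had enough counts to be tested, among 12004 genes in all, and Alas2 did not. The cells were AML246, a leukaemia line from C57BL/6 mice that is p53-/- and carries shPU.1, a short hairpin RNA against the myeloid transcription factor PU.1, and they grew in medium with IL3. Clones 1, 2 and 4, each grown from 1 sorted cell, were sequenced in 3 states, which gave 9 libraries. Untreated cells had no doxycycline and were sorted as GFPhigh, doxycycline cells were kept in the drug for 14 days and sorted as GFPoff, and washed cells, after the same 14 days, spent a further 14 days in drug-free medium and were sorted again as GFPhigh. All groups share the p53 loss and the hairpin construct, so no group is free of either. The clones are sublines of 1 leukaemia rather than separate animals. P-values between states measure the spread between these clones, after removal of each clone's mean level where clone is in the model. In tests between clones the 3 states of a clone serve as its replicates, so those p-values measure the spread left after state and clone. Doxycycline, the GFP gate and the hairpin's state changed together and cannot be told apart here.

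Heme is an iron-bearing ring that is built partly in mitochondria and partly in the cytosol. Aminolevulinate synthase makes the first intermediate and sets the pace of the pathway; Alas1 encodes the form found in most cells and Alas2 the form of red cell precursors. Alad, Uros and Urod encode cytosolic enzymes that build and trim the ring, Cpox and Ppox encode mitochondrial oxidases, and Fech encodes ferrochelatase, which inserts iron. In myeloid cells heme is the cofactor of the granule peroxidases and of the phagocyte oxidase, and in red cell precursors, which depend on Epor for survival, most of it goes to hemoglobin.

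Promoter windows, the 250 bases before an annotated start, were taken from RefSeq on GRCm38.p6 for 8 of the 9 genes, and 3 of them are shown because they stand for a gene that fell in doxycycline by the test below and has a GATA hexamer (Epor, Cpox) or for a gene without a called change and without that hexamer (Alad). Since the choice used both the change and the hexamer, these 3 windows cannot show whether the 2 go together. Each runs 5′ to 3′ on the gene's strand up to the base before the start. Capitals mark matches on either strand to the GATA hexamers AGATAA and TGATAA and to the GC box GGGCGG; the ETS core AGGAAG and the NRF1 motif were searched as well and have no match in these 3 windows.
Epor, chr9:21963577-21963826, minus strand: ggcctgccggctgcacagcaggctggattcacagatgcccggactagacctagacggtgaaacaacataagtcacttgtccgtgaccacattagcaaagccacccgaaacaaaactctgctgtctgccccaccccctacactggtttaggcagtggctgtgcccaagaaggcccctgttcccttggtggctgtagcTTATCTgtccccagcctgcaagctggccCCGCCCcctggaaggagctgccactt
Cpox, chr16:58669958-58670207, plus strand: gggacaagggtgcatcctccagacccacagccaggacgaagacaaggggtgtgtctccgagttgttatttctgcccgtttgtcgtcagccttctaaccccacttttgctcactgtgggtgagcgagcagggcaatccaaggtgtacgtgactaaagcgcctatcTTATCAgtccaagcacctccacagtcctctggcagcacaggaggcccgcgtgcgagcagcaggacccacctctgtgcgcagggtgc
Alad, chr4:62520064-62520313, minus strand: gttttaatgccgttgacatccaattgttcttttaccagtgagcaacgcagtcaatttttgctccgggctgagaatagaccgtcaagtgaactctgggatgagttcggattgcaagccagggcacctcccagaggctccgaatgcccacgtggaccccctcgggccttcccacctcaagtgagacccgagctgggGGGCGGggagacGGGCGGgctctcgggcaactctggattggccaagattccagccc
The Epor window holds TTATCT at 54 to 49 bases before the start and 1 GC box at 26 to 21 bases. The Cpox window holds TTATCA at 86 to 81 bases and no GC box, and the Alad window holds a pair of GC boxes. Fech had no promoter window and was not searched for any motif. Counting both starts where a gene has 2, a GATA hexamer occurred in windows of 4 of the 8 genes: Epor, Cpox, the second start of Uros (68 to 63 bases before it) and Alas2 (86 to 81 bases before it). Of all 32851 promoter windows of this length 16.6% hold such a hexamer and 32.7% hold a GC box. These shares are per window, while the 4 of 8 is per gene, with 2 windows for 3 of the genes. The count and the shares are therefore not directly comparable. The longer PU.1-like motif GAGGAAGT, found in 2.44% of windows, had no match in any of the 11 windows of these genes. Its shorter ETS core AGGAAG, found in 29.5% of all windows, occurred at the first start of Uros (177 to 172 and 144 to 139 bases before it), in Urod (10 to 5 bases) and in Alas2 (147 to 142 bases). The NRF1 motif, found in 3.74% of all windows, occurred at the second start of Alas1 and the first start of Uros. A match describes letters and is no evidence of binding.

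Library totals ran from 7408118 to 9803258 counts. Spi1, which encodes PU.1 and checks the labels, was higher in all 3 doxycycline libraries (156 to 197 CPM) than in the other 6 (23.7 to 52.0 CPM), with a log2 fold change of 2.20 ± 0.34 against untreated (SE, adjusted p = 0.00623 by edgeR's quasi-likelihood test). Untreated clone 1 stood apart, with 21.98% of its counts on a single entry without a symbol and a TMM scaling factor of 0.736, against 0.916 to 1.18 in the others. Washed clone 1 stood apart too: its myeloperoxidase gene Mpo was at 1720 CPM, against 50.04 to 82.7 CPM in the other untreated and washed libraries, and its 16 neutrophil markers summed to 3312 CPM, against 364 and 407 CPM in the other washed libraries. Those markers summed to 391 to 743 CPM in untreated and 1280 to 3390 CPM in doxycycline libraries, and 8 of the 14 tested rose in doxycycline while 0 fell (8 rose and 3 fell with clone as a block, explained below). Over all tested genes 6.57% rose and 4.35% fell (13% and 11.7% with the block). The sums of washed clone 1 and of the doxycycline libraries came from different markers. Mpo, Ctsg, Prtn3 and Elane, at 1720, 952, 300.05 and 203 CPM, made up most of the first. In doxycycline these 4 had log2 fold changes of -2.82, -1.60, -0.93 and -2.05 against untreated (adjusted p = 0.273, 0.263, 0.303 and 0.168 by edgeR; 0.0125, 0.0184, 0.0505 and 0.00516 with the block). S100a8 and Lcn2 were at most 20.7 and 5.51 CPM in washed libraries. Eosinophil markers summed to 8410 to 12478 CPM in untreated, 3959 to 5115 CPM in doxycycline and 8371 to 10959 CPM in washed libraries. Mast cell and basophil markers summed, by clone, to 2770, 3549 and 2951 CPM in untreated, 727, 2750 and 1437 CPM in doxycycline and 1039, 3794 and 3052 CPM in washed cells. Megakaryocyte and platelet markers summed to 883 to 1642 CPM in untreated, 3978 to 4372 CPM in doxycycline and 605 to 1570 CPM in washed libraries. The part of these cell types in the changes of the heme genes was not tested; in bulk RNA, fewer cells of a type and less RNA per cell cannot be told apart.

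All values per library are CPM (counts scaled to a common library size) adjusted by the TMM method, listed for clones 1, 2 and 4 in that order. Alas1 (Entrez 11655, chromosome 9, 106233455 to 106247954, minus strand) was the most abundant. Its level was 296, 212 and 215 CPM in untreated, 463, 240 and 338 CPM in doxycycline and 274, 176 and 209 CPM in washed cells. In each clone the doxycycline library was the highest of the 3, 1.57, 1.13 and 1.57 times the untreated one, but the groups overlapped because clone 1 was high throughout. Without regard to clone the difference missed the threshold (log2 fold change 0.53 ± 0.28 SE, adjusted p = 0.258 by edgeR); with clone as a block, which compares libraries within each clone, it passed (0.49 ± 0.15, adjusted p = 0.0450). Against doxycycline, washed cells had a log2 fold change of -0.66 ± 0.28 (adjusted p = 0.173, and 0.0194 with the block). Neither block call for Alas1 stood when clone 2 or clone 4 was left out, or when libraries were scaled by their totals alone (with the block, adjusted p = 0.105 in doxycycline and 0.149 after washout). Exons of Alas1 share 465 bases with the transcript 4930500F10Rik on the other strand, so its level is uncertain to that extent.

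The red cell form Alas2 (Entrez 11656, chromosome X, 150547417 to 150570622, plus strand) was hardly counted. The libraries held 1, 0 and 0 counts in untreated, 0, 1 and 3 in doxycycline and 5, 0 and 1 in washed cells, 11 in all, and the highest level was 0.460 CPM in washed clone 1. A count of 0 allows at most 3 counts, or 0.265 to 0.378 CPM in the libraries that had none. No fold was computed, since every group was near that limit. Its exons share 311 bases with Apex2 on the other strand, so even these counts are uncertain. The aminolevulinate synthase counts of these cells were thus nearly all assigned to Alas1.

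Among the cytosolic steps Alad and Urod had no called change and Uros fell. Alad (Entrez 17025, chromosome 4, 62505984 to 62520063, minus strand), the enzyme that condenses aminolevulinic acid to porphobilinogen, stood at 12.3, 14.5 and 16.1 CPM in untreated, 16.5, 10.3 and 15.8 CPM in doxycycline and 17.6, 17.4 and 16.3 CPM in washed cells. Its clones moved in different directions in doxycycline, by ratios of 1.34, 0.713 and 0.984. The log2 fold change was -0.01 (95% interval -0.54 to 0.53, adjusted p = 0.989 by edgeR), which became 0.23 when libraries were scaled by their totals alone. Urod (Entrez 22275, chromosome 4, 116989965 to 116994436, minus strand), which removes carboxyl groups from the ring, stood at 43.8, 59.8 and 48.2 CPM in untreated, 45.9, 59.0 and 36.8 CPM in doxycycline and 49.6, 77.7 and 57.1 CPM in washed cells. Here too the groups overlapped (log2 fold change -0.10, 95% interval -0.64 to 0.44, adjusted p = 0.823; 0.08 with scaling by totals alone).

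Uros (Entrez 22276, chromosome 7, 133686142 to 133710467, minus strand) encodes uroporphyrinogen III synthase, which closes the ring. Its level was 33.6, 34.3 and 35.2 CPM in untreated, 12.4, 11.4 and 8.53 CPM in doxycycline and 14.2, 42.8 and 31.0 CPM in washed cells. The untreated libraries were nearly level and every doxycycline library lay below all of them, at 0.371, 0.332 and 0.242 of the same clone's untreated level. The fall was 3.18-fold (log2 fold change -1.67 ± 0.36 SE, adjusted p = 0.0209 by edgeR, and 0.0113 with the block). After washout clones 2 and 4 rose again by 3.76 and 3.63 times, while clone 1 stayed at 1.14 times its doxycycline level, or 0.422 of its untreated level. Uros rose over the 3 clones together (log2 fold change 1.44 ± 0.36, adjusted p = 0.0370, and 1.77, adjusted p = 0.00234 without washed clone 1). That call was lost with limma voom (1.28, adjusted p = 0.0805) and with the 2 groups fitted alone (1.47, adjusted p = 0.119).

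Among the mitochondrial steps Cpox fell, Fech was lower in each clone, and Ppox had no called change. Cpox (Entrez 12892, chromosome 16, 58670208 to 58680391, plus strand), coproporphyrinogen oxidase, stood at 61.5, 62.0 and 32.9 CPM in untreated, 22.7, 22.6 and 17.3 CPM in doxycycline and 57.1, 67.6 and 26.6 CPM in washed cells. All doxycycline libraries lay below all others, and clone 4 was the lowest of each state. The fall was 2.50-fold and stood just inside the threshold (log2 fold change -1.32 ± 0.37 SE, adjusted p = 0.0491 by edgeR; 0.00376 with the block). It missed with DESeq2's median-ratio size factors in edgeR (adjusted p = 0.0502), with scaling by totals alone (0.101) and with limma voom (0.0812). The difference after washout missed it (1.27 ± 0.36, adjusted p = 0.0592) and passed with the block (adjusted p = 0.00513). Exons of Cpox share 204 bases with Gpr15 on the other strand. Gpr15 was at 3.49 to 4.41 CPM in untreated and 12.8 to 14.2 CPM in doxycycline cells, the opposite direction, and the strand setting of the counting is not given in the sources used here.

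Ppox (Entrez 19044, chromosome 1, 171276991 to 171281193, minus strand), protoporphyrinogen oxidase, stood at 26.2, 32.6 and 22.6 CPM in untreated, 14.4, 28.8 and 14.1 CPM in doxycycline and 11.4, 31.5 and 21.5 CPM in washed cells. Each clone was lower in doxycycline, by ratios of 0.548, 0.884 and 0.626, but clone 2 hardly moved and the groups overlapped (log2 fold change -0.51, 95% interval -1.42 to 0.39, adjusted p = 0.456 by edgeR; 0.126 with the block). Its exons share 791 bases with B4galt3 on the other strand, which was at 34.0 to 37.2 CPM in untreated and 47.9 to 65.6 CPM in doxycycline cells, so the level of Ppox is uncertain.

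Fech (Entrez 14151, chromosome 18, 64456542 to 64489098, minus strand) stood at 164, 127 and 153 CPM in untreated, 102, 58.2 and 62.1 CPM in doxycycline and 314, 126 and 149 CPM in washed cells. The doxycycline libraries were the lowest of each clone, at 0.625, 0.459 and 0.406 of the untreated level, and the groups did not overlap. The difference nonetheless missed the threshold without the block (log2 fold change -0.99 ± 0.36 SE, adjusted p = 0.111 by edgeR) and passed with it (-1.05 ± 0.20, adjusted p = 0.00928); it also passed without clone 1 (-1.22, adjusted p = 0.0163) and without washed clone 1 alone (-0.99, adjusted p = 0.0193). The block call was lost with scaling by totals alone (-0.87, adjusted p = 0.0690), without clone 2 (adjusted p = 0.0809) and without clone 4 (0.128). Washed clone 1 was the highest Fech library at 1.92 times its untreated level, against 0.992 and 0.977 in the other clones. From doxycycline to washed cells Fech rose (1.40 ± 0.36, adjusted p = 0.0415), and by less without washed clone 1 (0.89, adjusted p = 0.0472). This rise missed the threshold with scaling by totals alone (adjusted p = 0.0811) and with the 2 groups alone (0.116).

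Epor (Entrez 13857, chromosome 9, 21958897 to 21963576, minus strand) had the largest fold change of the 8 tested genes. It stood at 6.97, 14.9 and 11.2 CPM in untreated, 0.529, 1.98 and 1.74 CPM in doxycycline and 4.33, 18.4 and 10.5 CPM in washed cells. The doxycycline values rest on 6, 15 and 18 counts, and each lay below every other library. Within clones the doxycycline level was 13.2, 7.49 and 6.44 times lower than the untreated one, and clone 1 had the least Epor in each state. The group means were 11.0 ± 3.95 CPM untreated, 1.42 ± 0.780 CPM in doxycycline and 11.1 ± 7.04 CPM washed (SD, n = 3 per group). Against untreated cells Epor fell 7.87-fold, a log2 fold change of -2.98 ± 0.64 (SE, adjusted p = 0.0208 by edgeR; 0.000933 with the block). It rose after washout in all 3 clones, by 8.17, 9.26 and 6.03 times (log2 fold change 2.97 ± 0.64, adjusted p = 0.0229; 0.00112 with the block). The rise missed the threshold with limma voom (2.89, adjusted p = 0.0515) and with the 2 groups alone (3.00, adjusted p = 0.0758). Its window with the hexamer TTATCT is printed above. Epo, the gene for the ligand, had 0 counts in all 9 libraries.

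**Figure D1:**
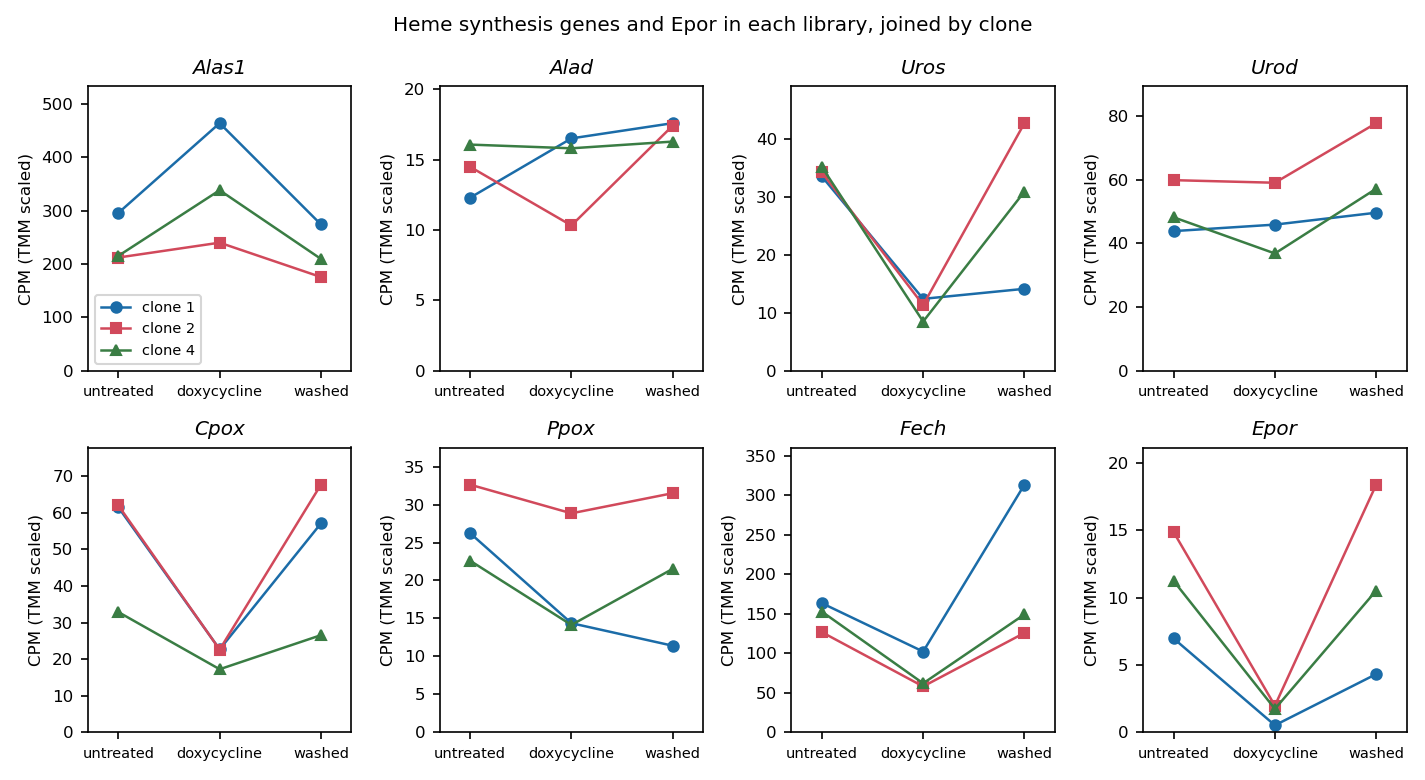
CPM (TMM scaled, vertical axes from 0) of the 8 tested genes in each of the 9 libraries, with lines joining the libraries of a clone across untreated, doxycycline and washed cells. Uros, Cpox, Fech and Epor are lowest in doxycycline in each clone, Alas1 is highest there, and washed clone 1 departs from the other washed libraries in Uros (14.2 CPM) and Fech (314 CPM).

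Counted over the group, 3 of the 8 tested genes fell in doxycycline (Uros, Cpox and Epor) and 0 rose, where 10.9% of all 12004 tested genes were called, 4.35% lower and 6.57% higher. With the block 4 fell and 1 rose (Fech and Alas1 added), where 24.8% of all genes were called, 11.7% lower and 13% higher. With the block and scaling by totals alone 3 fell and 0 rose. There 2189 of the 12004 tested genes were called, 67.9% of them higher. The libraries of 4 genes did not overlap between doxycycline and untreated, where 38.9% of all tested genes did not; all 4 lay lower, where 18.5% did. The median log2 fold change of the 8 was -0.75, beside 0.0045 over all tested genes. From doxycycline to washed cells 3 were called (Uros, Fech and Epor), where 9.66% of all genes were; all 3 rose, where 3.64% rose and 6.02% fell. With the block 5 were called, where 22.9% of all genes were, 4 of them higher and 1 lower, where 10.4% rose and 12.4% fell. The libraries of Uros, Cpox, Fech and Epor lay wholly higher, where 26.4% of all genes did not overlap and 11.8% lay higher, and the median was 0.83 beside 0.037 over all genes. These 2 comparisons share the doxycycline libraries, so the values stand side by side and do not support each other. The genes were chosen with earlier results of these data known, so a count above the share over all genes is no independent evidence.

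The calls rest on few clones. Without clone 2, and likewise without clone 4, none of Uros, Cpox and Epor passed in doxycycline against untreated (adjusted p = 0.0967, 0.192 and 0.0966 without clone 2; 0.323, 0.140 and 0.284 without clone 4), although the fold changes kept their direction. Without clone 1, Uros (adjusted p = 0.0150) and Epor (0.0142) stood and Cpox did not (0.173). Leaving out only untreated clone 1, the library with the low scaling factor, all 3 missed, Uros at 0.0689, Cpox at 0.160 and Epor at 0.0501, with log2 fold changes of -1.69, -1.19 and -3.22. With clone as a block, Cpox and Epor passed without any 1 of the clones, and Uros did not without clone 2 (0.0672) or clone 4 (0.115). Of the rises after washout in the fit without the block, Uros and Fech were lost without untreated clone 1 (0.0665 and 0.0718) and Epor was not (0.0383). In that fit each of the 3 was lost without clone 2 or clone 4. With the block, Epor stood without clone 2 (adjusted p = 0.0377 by edgeR) and without clone 4 (0.0312). Fech then stood without clone 2 (0.0499) and missed without clone 4 (0.0641), and Uros missed in both cases (0.189 and 0.207).

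**Figure D2:**
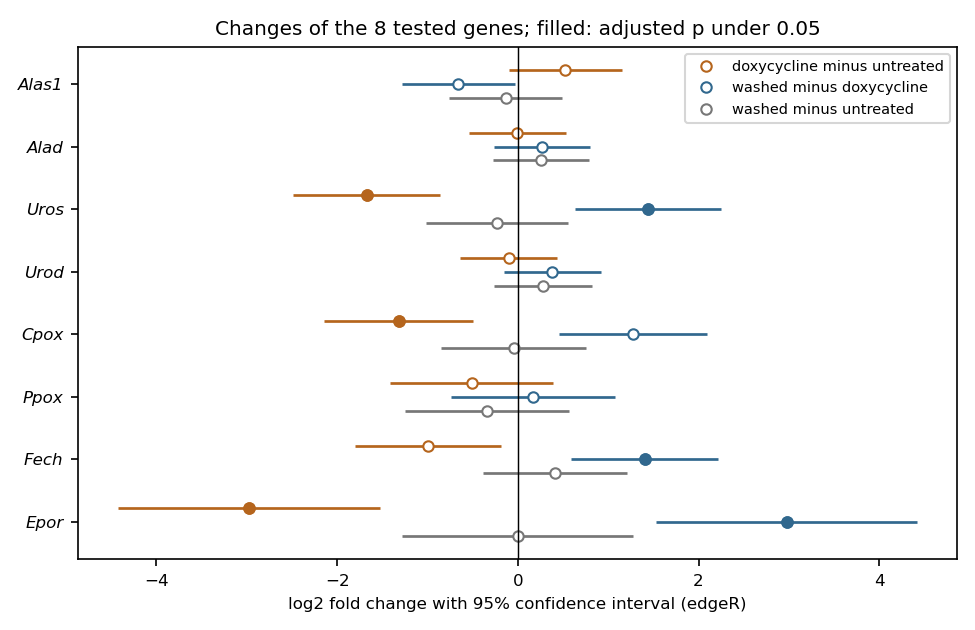
Log2 fold changes of the 8 tested genes with 95% confidence intervals from edgeR without the block, for doxycycline minus untreated, washed minus doxycycline and washed minus untreated; filled points have an adjusted p under 0.05. Epor lies farthest from 0 (-2.98 and 2.97), and every washed minus untreated interval crosses 0.

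Washed cells were compared with untreated cells to ask whether the levels came back once doxycycline was withdrawn. None of the 8 genes was called, and edgeR called 0 of the 12004 genes (0%); 38 genes and 0 of the 8 had an unadjusted p under 0.05, and limma voom, DESeq2 and the block called 0 genes as well. The intervals still leave room for sizeable differences. For Epor the log2 fold change was -0.0029 with a 95% interval of -1.28 to 1.28, that is from 0.411 to 2.42 times the untreated level. Those of the others ran from -0.76 to 0.49 for Alas1, -1.02 to 0.55 for Uros, -0.85 to 0.76 for Cpox, -1.24 to 0.56 for Ppox, -0.39 to 1.21 for Fech, -0.26 to 0.82 for Urod and -0.28 to 0.79 for Alad. Alad alone did not overlap, all washed libraries being above all untreated ones, where 2.36% of all genes did not overlap, 1.31% higher and 1.05% lower. By clone, washed Epor stood at 0.621, 1.24 and 0.936 of its untreated level and washed Ppox at 0.435, 0.966 and 0.953. In Uros, Ppox and Epor clone 1 was the clone furthest below its untreated level. In the lists of pathway genes described further on none was called either. The smallest p of any was that of the iron exporter gene Slc40a1 (4.99 CPM untreated, 25.9 CPM washed), followed by Mpo (71.1 and 612 CPM), each with an adjusted p of 1 by edgeR; washed clone 1 had the highest value of both. The other lists had their smallest p in Abcb10 (85.1 and 129 CPM), Flvcr1 (19.1 and 33.6 CPM), Pik3r1 (40.6 and 53.5 CPM), Xk (14.2 and 22.1 CPM) and Eif2ak1 (90.9 and 102 CPM), each with an adjusted p of 1.

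Levels of different genes were compared per kilobase of the gene length given in the files. In untreated cells Alas1 led with 89.2 CPM per kilobase, followed by Fech (51.0), Urod (42.2), Uros (19.0), Cpox (16.4), Ppox (14.9), Alad (10.6), Epor (6.03) and Alas2 (0.0309). Fech and Urod overlapped across clones, as did Uros with Cpox and Cpox with Ppox; the other neighbours in that order did not overlap. In doxycycline the order was Alas1 (128), Urod (39.4), Fech (25.6), Ppox and Alad (both 10.5), Cpox (6.54), Uros (5.95), Epor (0.776) and Alas2 (0.0713). Here Urod overlapped with Fech, Ppox with Alad, and Cpox with Uros. Fech exceeded Alas1 in 1 library, washed clone 1 (108 against 101 CPM per kilobase). The order depends on the length used. With the length of all annotated GENCODE exons of a gene, tried after the data were seen, Alas1 exceeded Fech in all 9 libraries, in washed clone 1 with 44.4 against 22.7 CPM per kilobase. On that length untreated Urod (19.5) stood above Fech (10.7), and Alad above Fech in doxycycline (7.59 against 5.36).

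**Figure D3:**
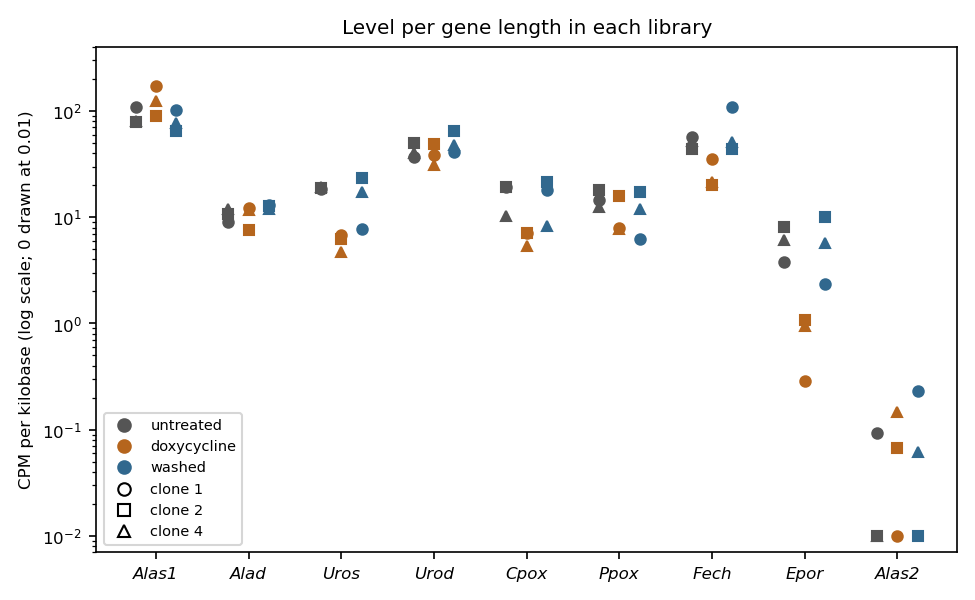
CPM per kilobase of gene length (length as given in the files, log axis, zero counts drawn at 0.01) for the 9 genes in each library; colours give the state and shapes the clone. Alas1 is the highest gene in 8 of the 9 libraries, Epor drops in doxycycline to 0.289 to 1.08, and Alas2 lies at or near 0 in every library.

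Because Alas1 was higher and Fech lower in doxycycline in each clone, the ratio of the first to the last step was computed per kilobase in each library. The later enzymes did not all move so, since Alad, Urod and Ppox had no called change. The genes of these ratios were picked after their levels were seen, so a separation by state was expected in advance. Alas1 exceeded Fech 1.94, 1.79 and 1.51 times in untreated, 4.86, 4.42 and 5.84 times in doxycycline and 0.938, 1.497 and 1.505 times in washed cells. Every doxycycline ratio was above every other. The ratio of Alas1 to Uros likewise stood at 5.90, 4.15 and 4.10 in untreated, 24.97, 14.1 and 26.6 in doxycycline and 13.0, 2.75 and 4.54 in washed cells, with washed clone 1 near the doxycycline values. On exon lengths from GENCODE every ratio to Fech is 2.09 times larger and every ratio to Uros 0.864 times as large, so the size of a ratio rests on the length and its change between states does not. With 3 clones against 3 an exact permutation test of such a ratio cannot give a two-sided p under 0.1, so no call was made on it. A ratio within a library does not depend on how libraries are scaled, but it shows unequal change only, not which of the genes moved.

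Clones differed in level as well as state. Alas1 was highest in clone 1 in all 3 states, Cpox lowest in clone 4, and Ppox and Epor highest in clone 2. In the model with state and clone, 4 of the 8 genes differed between clones 2 and 1, where 18.5% of all genes did, 8.11% higher and 10.4% lower in clone 2. Clone 2 had more Epor (log2 fold change 1.64 ± 0.30 SE, adjusted p = 0.0315 by edgeR) and more Ppox (0.91, adjusted p = 0.0443), and less Alas1 (-0.69, adjusted p = 0.0332) and less Fech (-0.85, adjusted p = 0.0355). Without washed clone 1 the Ppox and Fech differences were 0.62 (adjusted p = 0.0888) and -0.61 (0.0553), while Alas1 (0.0386) and Epor (0.0494) stood. With scaling by totals alone Alas1 (-0.74, adjusted p = 0.101) and Fech (-0.95, 0.0582) missed the threshold, while Ppox (0.0455) and Epor (0.00693) stood. No gene of the 12004 was called between clones 4 and 1 or clones 4 and 2 (0%; 2372 and 2776 genes, and 4 and 3 of the 8, had an unadjusted p under 0.05). The test over all 3 clones also called 0 genes (4501 and 6 of the 8 had an unadjusted p under 0.05; limma voom called 1013 genes, 3 of them among the 8).

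Whether the clones responded differently to doxycycline was tested by the interaction of clone with state, taking untreated and washed libraries together as the state without doxycycline. No gene was called (0%; 407 genes and 0 of the 8 had an unadjusted p under 0.05 by edgeR, and limma voom called 0). Few degrees of freedom are left in this model, and a miss does not show that the clones responded alike. The spread in this model comes only from the differences between untreated and washed libraries of the same clone. Without untreated clone 1 the interaction passed for 4 of the 8 genes, where 33.9% of all genes passed, and without washed clone 1 for 2, where 20.4% did. Clone 1 then has 1 library on each side and the spread comes from clones 2 and 4 alone, whose untreated and washed libraries were the closest pairs of all, so no call is read from these fits.

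Across the 9 libraries the log2 CPM of Epor ran with that of Uros (Pearson r = 0.89) and Cpox (0.69) and against that of Alas1 (-0.89); Uros and Cpox had r = 0.69 and Cpox and Fech 0.67. These correlations share libraries, states and clones, so they restate the patterns by state and carry no p. Among 10124 genes, the 3 most like Epor by this measure were Ggt1 (r = 0.99), Rrad (0.99) and Ktn1 (0.98). Ggt1 went from 20.3 CPM in untreated to 0.647 CPM in doxycycline and 20.3 CPM in washed cells. The gene most like Alas1 was Trf, which encodes transferrin, the iron carrier of plasma (r = 0.99), at 56.6 CPM in untreated, 84.2 CPM in doxycycline and 50.3 CPM in washed cells, followed by Dsn1 and Stam2. Kifbp led for Uros, Qars for Cpox and Slco4a1 for Fech (each r = 0.99).

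The genes around the pathway were then described list by list, each for doxycycline against untreated by edgeR without the block. Of 26 tested genes for mitochondrial transport and iron-sulfur supply, 2 fell and 0 rose (1 rose and 6 fell with the block), with a median log2 fold change of -0.05. Over all genes 4.35% fell and 6.57% rose (11.7% and 13% with the block), and several list counts lie near these shares. Abcb6, a transporter placed among the porphyrin carriers, fell from 45.5 ± 5.75 to 15.6 ± 3.52 CPM (SD, n = 3, adjusted p = 0.00417). Hspa9, a mitochondrial chaperone that helps iron-sulfur assembly, fell from 542 to 271 CPM (adjusted p = 0.0342). The next in order, Clpp, the subunit of a mitochondrial protease, was at 42.5 and 29.3 CPM (adjusted p = 0.0695). Both genes that fell rose again after washout (adjusted p = 0.0026 and 0.0428).

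Of 17 tested genes for heme breakdown, export and sensing, 1 rose and 0 fell (3 rose and 1 fell with the block), with a median of 0.30. The riser was Hmox2, the constitutive heme oxygenase, from 18.9 ± 2.77 to 33.7 ± 6.69 CPM (adjusted p = 0.0379). Bach1, a repressor that heme inactivates, was at 42.1 and 72.2 CPM and missed the threshold (adjusted p = 0.0624; 0.0140 with the block). Eif2ak1, the heme-regulated kinase that slows translation when heme is scarce, was at 90.9 and 119 CPM (adjusted p = 0.129).

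Of 17 tested genes for iron uptake, storage and control, 2 rose and 3 fell (3 and 4 with the block), with a median of -0.07. Steap3, the reductase of endosomal iron, fell from 40.4 ± 6.71 to 7.96 ± 2.55 CPM (adjusted p = 0.00186). Cybrd1, another iron reductase, fell from 2.94 to 0.150 CPM (adjusted p = 0.0138), and Tfr2, the second transferrin receptor and a partner of Epor, from 141 ± 27.5 to 66.1 ± 15.2 CPM (adjusted p = 0.0237). Lcn2, which binds iron-loaded siderophores, rose from 4.97 ± 1.58 to 172 ± 84.5 CPM (adjusted p = 0.000865). The remaining riser, Slc40a1, the iron exporter ferroportin, stood at 7.89, 2.64 and 4.45 CPM in untreated and 156, 54.1 and 59.1 CPM in doxycycline cells (adjusted p = 0.0477), and washed clone 1 kept 69.3 CPM, against 2.70 and 5.75 CPM in the other washed clones.

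Of 13 tested enzymes that carry or serve heme in granules, the oxidase and lipid mediator synthesis, 4 rose and 1 fell (5 and 2 with the block), with a median of 0.26. Cyp4f18, a leukotriene hydroxylase, rose from 10.2 ± 4.63 to 163 ± 59.4 CPM (adjusted p = 0.00124). Thromboxane synthase, Tbxas1, rose from 0.309 to 9.0 CPM (adjusted p = 0.00806), and Cyba, a subunit of the phagocyte oxidase's cytochrome, from 289 ± 28.3 to 754 ± 213 CPM (adjusted p = 0.0108); the fourth riser was Ptgs1. The gene that fell, named after its values were seen, was Epx, the eosinophil peroxidase and the most abundant of the list, at 10912, 7881 and 7434 CPM in untreated, 4784, 2890 and 2654 CPM in doxycycline and 10552, 7893 and 7324 CPM in washed cells (adjusted p = 0.0388). Mpo was at 71.1 CPM in untreated and 9.88 CPM in doxycycline cells and was called with the block alone (adjusted p = 0.273 without, 0.0125 with it). Cybb, the other subunit of that cytochrome, was at 4.09 and 0.805 CPM (adjusted p = 0.104 and 0.0981). Epx thus moved in the same direction as Uros, Cpox and Epor in these libraries, and Cyba in the opposite one.

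Of 24 tested genes of erythropoietin signalling, 3 rose and 1 fell (6 and 1 with the block), with a median of 0.19. The fall was Tfr2. Ptpn6, a phosphatase known to dampen Epor signalling, rose from 86.6 ± 0.166 to 152 ± 11.3 CPM (adjusted p = 0.00924), and Lyn, a kinase of several cytokine receptors, from 36.9 ± 4.68 to 79.2 ± 9.77 CPM (adjusted p = 0.0120); the third riser was Csf3r. Jak2, the kinase bound to Epor and to the IL3 receptor, was at 87.3, 138 and 76.6 CPM in untreated and 120, 282 and 166 CPM in doxycycline cells; it was higher in each clone and was called only with the block (adjusted p = 0.199 without, 0.0143 with it).

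Of 12 tested regulators of heme synthesis 2 rose and 1 fell (3 and 3 with the block), with a median of 0.21. Hif1a, the oxygen-regulated factor, rose from 154 ± 13.7 to 317 ± 8.99 CPM (adjusted p = 0.0161), and Sp1, the factor of the GC box, from 115 ± 5.21 to 200.3 ± 18.8 CPM (adjusted p = 0.0301). Ppargc1b, a coactivator of mitochondrial genes, fell from 2.66 ± 0.358 CPM to 0 counts in all 3 doxycycline libraries, which allows up to 0.265, 0.397 and 0.291 CPM (adjusted p = 0.0143). The GATA factors whose hexamer was searched were not called without the block. Gata2 stood at 898, 1669 and 1405 CPM in untreated, 238, 1167 and 504 CPM in doxycycline and 222, 1872 and 1422 CPM in washed cells (adjusted p = 0.396, and 0.0465 with the block). Gata1 (adjusted p = 0.440, and 0.0577 with the block) stood at 89.5, 122 and 97.5 CPM in untreated, 15.2, 92.9 and 58.5 CPM in doxycycline and 26.9, 166 and 102 CPM in washed cells. Among washed libraries clone 1 was the lowest in both, as for Uros, Urod, Ppox and Epor. Alas1, Alad and Fech were instead highest in washed clone 1, and Cpox was lowest in washed clone 4. A link of the GATA factors to any of these genes was not tested.

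**Figure D4:**
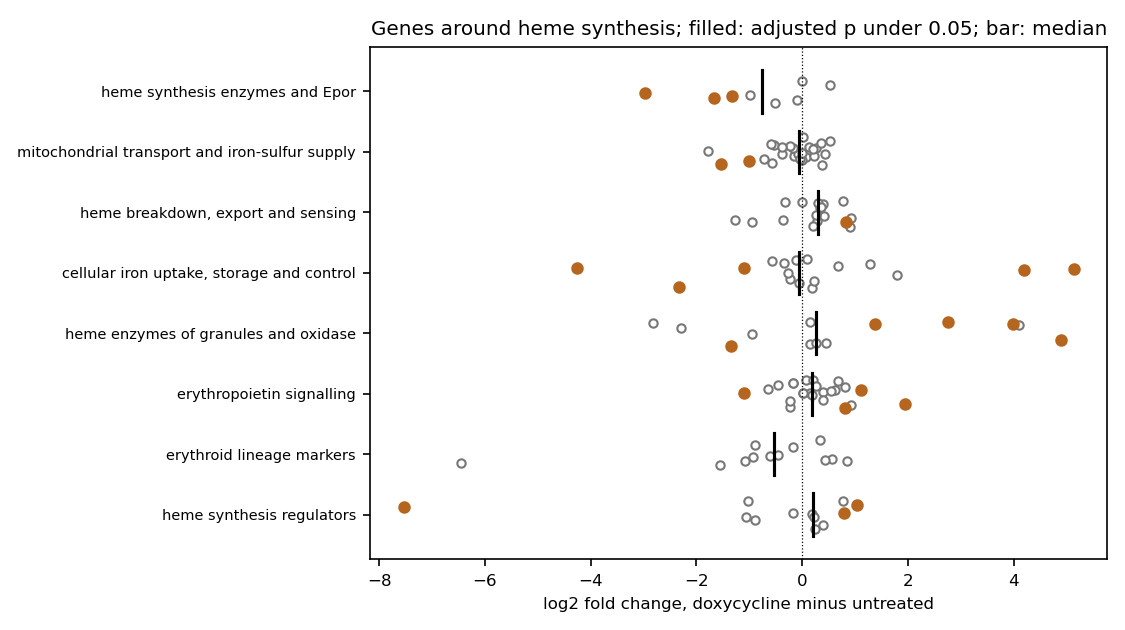
Log2 fold changes in doxycycline against untreated cells for the tested genes of each list, with a bar at the list's median; filled points have an adjusted p under 0.05 by edgeR. The heme synthesis genes and Epor have the lowest median (-0.75), and the calls in the iron, granule and oxidase lists lie on both sides of 0. All lists were chosen with earlier results of these data known.

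Red cell markers were read beside Epor, since Epor, Gata1 and the heme enzymes are shared with that lineage. Of 28 markers 26 matched, 25 had any count and 12 were tested. None was called in doxycycline against untreated, with a median log2 fold change of -0.54. With the block 1 rose and 2 fell, where 13% of all tested genes rose and 11.7% fell. The markers' summed level was 732 to 781 CPM in untreated, 642 to 847 CPM in doxycycline and 667 to 812 CPM in washed libraries. Some defining genes were at or near 0: Rhag, of the Rhesus complex, had 0 counts in all libraries and Slc4a1, the red cell anion exchanger, at most 7. The hemoglobin genes Hba-a1 and Hba-a2 averaged 1.26 and 0.813 CPM in untreated, 0.473 and 0.467 CPM in doxycycline and 1.76 and 1.98 CPM in washed cells. From doxycycline to washed cells Hba-a2 was called only with the block (adjusted p = 0.260 by edgeR without, 0.0194 with it). Klf1, a red cell transcription factor, was at 5.99 CPM in untreated, 2.83 CPM in doxycycline and 4.37 CPM in washed cells on average. The 3 markers of smallest p were Epb41, of the membrane skeleton (208 CPM untreated, 308 CPM in doxycycline, adjusted p = 0.0584), the glycophorin C gene Gypc (95.7 and 62.5 CPM, adjusted p = 0.124) and the blood group gene Kel (1.21 CPM and 0 counts, adjusted p = 0.144). Nfe2, Epb41, Gata1 and Gypc made up most of the sum.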

How the data were processed

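RNA of the 9 sorted libraries was sequenced with Illumina protocols, per the labels' protocols. The deposited files hold raw read counts per Entrez gene and a gene length. The submitters' processing notes name the build mm10 and the tools featureCounts, CASAVA 1.8.2, limma 3.22.0 and edgeR 3.8.2. The aligner and the strand setting were not given in the sources used here. Symbols, coordinates and promoter windows came from RefSeq (GRCm38.p6), which matched 25275 of 27179 entries, and exon overlaps from GENCODE M21.

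In R 4.3.3, edgeR 4.0.16 fitted a quasi-likelihood model with 3 group means to all libraries after filterByExpr and TMM scaling, with Benjamini-Hochberg adjustment at 0.05 over the 12004 genes tested. The SE was taken as the log2 fold change over the square root of F, and correlations used log2 CPM with a prior of 2 counts. The clone block pairs libraries of the same clone (their deviations from group means correlated at 0.29 to 0.68 in 9 pairs). The closest 2 libraries differed beyond sampling noise. A 0 was read as at most 3 counts, for counting error only. Scripts were tested on simulated data. Members and lists were chosen with earlier results of these data known. By rule the 9 genes, Spi1, the 3 genes of smallest p per list in doxycycline and 1 after washout, and the 3 genes most like each called gene were named; others were named after their values were seen. Alternatives were RLE size factors, totals alone, other filters, DESeq2 1.42.0, limma 3.58.1 voom, the clone block, 2 groups alone and leaving out clones or libraries; the block without each clone, the block with totals alone GENCODE exon lengths and the fit without entries lacking a symbol were added after the data were seen.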

Additional observations from a re-analysis of the deposited data

How the results depend on the processing

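The 8 tested genes were refitted under each alternative: of 576 gene values 479 kept their direction and their side of the threshold, 22 passed only under the alternative, 36 were lost and 39 changed sign. Uros, Cpox, Fech and Epor kept their direction in doxycycline against untreated and in washed against doxycycline under every alternative, as did Alas1. Depth limits Epor in doxycycline and all of Alas2.

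The number of genes called in doxycycline against untreated was 1311, and 2138 with DESeq2, 2976 with the replicate block, 2189 with the block and scaling by totals alone, 2026 with the 2 groups alone, 347 without untreated clone 1 and 2258 without washed clone 1. For washed against doxycycline it was 1160, and 648 with totals alone, 1967 with DESeq2, 2744 with the replicate block, 324 with the 2 groups alone, 717 without untreated clone 1 and 1814 without washed clone 1. Leaving out each clone gave 0 to 967 and 4 to 1069 calls, the 0 without clone 4, where 1608 genes had an unadjusted p under 0.05 by edgeR. With the block the ranges were 360 to 4117 and 320 to 4325 calls (623 and 421 without clone 2). With totals alone the median over all genes in doxycycline went from 0.0045 to 0.23 (log2) and the share of higher calls from 60.2% to 75.6%.

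Of the 8 genes, 3 fell in doxycycline. Fech was added with the replicate block, with the 2 groups alone and without washed clone 1. Cpox was lost with RLE size factors, with totals alone and with limma voom. Without untreated clone 1, 0 of the 8 fell, and leaving out each clone gave 0 to 3. None rose, against 1 with the replicate block (0 to 1 when a clone was also left out). After washout 3 rose, against 1 with limma voom, 0 with the 2 groups alone and 1 without untreated clone 1, 0 to 3 without each clone, and 2 to 5 with the block and without each clone; none fell, against 1 with the replicate block (0 to 1 without each clone). Among the rises after washout, Cpox was added with DESeq2, with the block and with the block and totals alone. Fech was lost there with totals alone. The block moved no call between washed and untreated cells. The test over 3 clones called 0 of the 8, against 1 with totals alone, 4 without the filter, 3 with limma voom, 5 without untreated clone 1 and 3 without washed clone 1, where 9.5%, 9.46%, 8.44%, 29.8% and 14.6% of all genes were called. The interaction called 0, against 4 without untreated clone 1 and 2 without washed clone 1, where 33.9% and 20.4% of all genes were called and clone 1 was 1 library against 1. The cause of these shifts was not tested.

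All 39 changes of sign were in differences that passed no threshold. With totals alone, doxycycline against untreated became 0.23 for Alad and 0.083 for Urod, and washed against untreated 0.12 for Alas1, 0.19 for Cpox and 0.10 for Epor; with the block as well these were 0.19, 0.11, 0.046, 0.13 and 0.064. Without the filter Alad became 0.0051, and with DESeq2 washed against untreated Epor became 0.0013. Washed against untreated became 0.042 for Alas1 and 0.091 for Cpox without untreated clone 1, and 0.10 for Uros, -0.10 for Fech and 0.38 for Epor without washed clone 1. Leaving out each clone, washed against untreated ran from -0.61 to 0.085 for Uros, -0.024 to 0.60 for Fech, -0.31 to 0.15 for Epor and -0.17 to 0.018 for Cpox, and doxycycline against untreated from -0.22 to 0.18 for Alad and -0.18 to 0.0041 for Urod. With the block these ranges were -0.65 to 0.066, -0.024 to 0.47, -0.39 to 0.12, -0.20 to 0.014, -0.23 to 0.18 and -0.20 to 0.013, and Ppox in washed against doxycycline reached -0.062 without clone 4. Between clones 4 and 1, Urod became -0.0067 with RLE size factors, -0.0054 without the filter, -0.019 without untreated and -0.086 without washed clone 1, Alad -0.10 without untreated clone 1, and Uros -0.27 and Ppox -0.081 without washed clone 1, where Uros between clones 2 and 1 became -0.0017.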
